A study of Mus musculus with 24 samples.

Results

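The classical monocyte genes examined here were 10 mouse genes, Ly6c2, Ccr2, F13a1, Fn1, Vcan, Chil3, Plac8, Ms4a4c, Ms4a6c and Lyz2. They were taken by matching the Ensembl ID of each row in the deposited files to its symbol, which found 10 of 10 among the 45792 genes listed, of which 24874 were not at 0 in every library. RNA had been sequenced from CD11c+ MHC class II+ liver cells of female C57BL/6 mice kept for 2 weeks on a diet lacking methionine and choline, which brings on fatty liver inflammation. Every mouse carried the diet and had been injected into a vein with liposomes labelled with DiI, a lipophilic dye, 24 hours before the sort, so no group was free of diet or liposomes. The libraries form 4 groups of 3, namely DiI-positive cells (dye taken up) after curcumin liposomes, DiI-positive cells after empty liposomes, DiI-negative cells after curcumin liposomes and DiI-negative cells after empty liposomes. Curcumin is a plant polyphenol. No label used here gives the age of the mice or says that the 3 libraries of a group are separate mice. The p-values therefore set differences between groups only against the spread of libraries within groups, and that spread may be technical.

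Classical monocytes leave the bone marrow through the chemokine receptor CCR2, carry high surface Ly6C, and enter inflamed liver. There they can become macrophages, among them cells that replace resident Kupffer cells, or cells that resemble dendritic cells and carry CD11c and MHC class II. As they mature in tissue they are known to lose Ly6C and CCR2. The 10 genes were listed as those of monocytes and their recent progeny, not of liver dendritic cells as such. They are not confined to those cells, as neutrophils also express Lyz2 and lymphoid cells Plac8. In the GENCODE M21 annotation of GRCm38 all 10 are protein-coding genes. They lie on chromosome 15 from 75108158 to 75111970 (Ly6c2), 9 from 124101950 to 124113557 (Ccr2), 13 from 36867178 to 37050244 (F13a1), 1 from 71585520 to 71653200 (Fn1), 13 from 89655312 to 89742509 (Vcan), 3 from 106147554 to 106167564 (Chil3), 5 from 100553725 to 100572245 (Plac8) and 10 from 117277331 to 117282321 (Lyz2), with the MS4A pair on chromosome 19.

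Regulatory sequence in front of 3 of the genes is shown because these genes were lower in DiI-positive cells and held a match to the core motif of PU.1, the transcription factor that directs monocyte development and is encoded by Spi1. RefSeq promoters of GRCm38.p6 were matched for 9 of the 10 genes, all but Fn1. Each line gives, 5′ to 3′ on the gene's own strand, the bases of the 250 before the start that lie outside the gene in both the RefSeq and the GENCODE M21 annotation, with the letters GAGGAA in capitals. The stretches are chr15:75112067-75112221 on the minus strand for Ly6c2, chr13:37050245-37050494 on the minus strand for F13a1 and chr5:100572254-100572455 on the minus strand for Plac8.
Ly6c2: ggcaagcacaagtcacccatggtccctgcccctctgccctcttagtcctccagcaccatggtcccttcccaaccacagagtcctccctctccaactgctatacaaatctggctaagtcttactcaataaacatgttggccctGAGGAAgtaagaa
F13a1: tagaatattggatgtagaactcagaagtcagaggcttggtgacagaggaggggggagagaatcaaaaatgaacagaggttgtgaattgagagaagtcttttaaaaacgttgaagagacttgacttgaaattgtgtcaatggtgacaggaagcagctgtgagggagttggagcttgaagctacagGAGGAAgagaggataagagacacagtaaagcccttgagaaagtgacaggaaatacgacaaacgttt
Plac8: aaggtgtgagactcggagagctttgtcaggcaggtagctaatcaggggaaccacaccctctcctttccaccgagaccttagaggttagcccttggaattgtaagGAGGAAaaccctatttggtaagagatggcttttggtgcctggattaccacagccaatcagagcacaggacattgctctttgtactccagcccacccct
Searched on both strands as GAGGAA or TTCCTC, the motif was present in the 250 bases before the start in 4 of the 9 genes (the 3 shown and Ms4a4c), against 23.1% of 27025 mouse promoters. The nearest match lay 108 bases before the start in Ly6c2, 66 in F13a1, 15 in Plac8 and 61 in Ms4a4c. A C/EBP motif spelled TTGCNNAA was in 0 of the 9 windows, against 9.55% of all promoters. These matches describe letters only, and in Plac8 the match at 15 bases lies within the annotated gene and so outside the stretch shown. The Ms4a4c match also lies within the annotated gene. The windows of Ms4a4c, Ccr2 and Vcan had 0 bases outside the gene in both annotations.

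Between the sorted gates the genes ran low in the DiI-positive cells. Averaged over both liposomes, 8 of the 10 fell in DiI-positive relative to DiI-negative cells (limma, Benjamini-Hochberg adjusted p under 0.05 over 14227 genes), against 6.56% of all genes tested. The largest falls were those of F13a1 and Ly6c2, and the smallest among the 8 was that of Ms4a6c. The median log2 fold change of the 10 genes was -0.73, against 0.01 for all genes tested. Within curcumin liposomes 4 of the 10 fell, against 1.67% of all genes, and within empty liposomes 3 of the 10 fell, against 1.62%. The medians of the 10 were -0.77 after curcumin and -0.80 after empty liposomes, and all 10 log2 fold changes were negative under each. These were bulk samples, in which fewer cells of a type and less RNA per cell cannot be told apart. All values and folds are on the authors' log2 scale. Its transform is not given, and a regularized log, whose form it has, would understate differences of low genes.

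**Figure D1:**
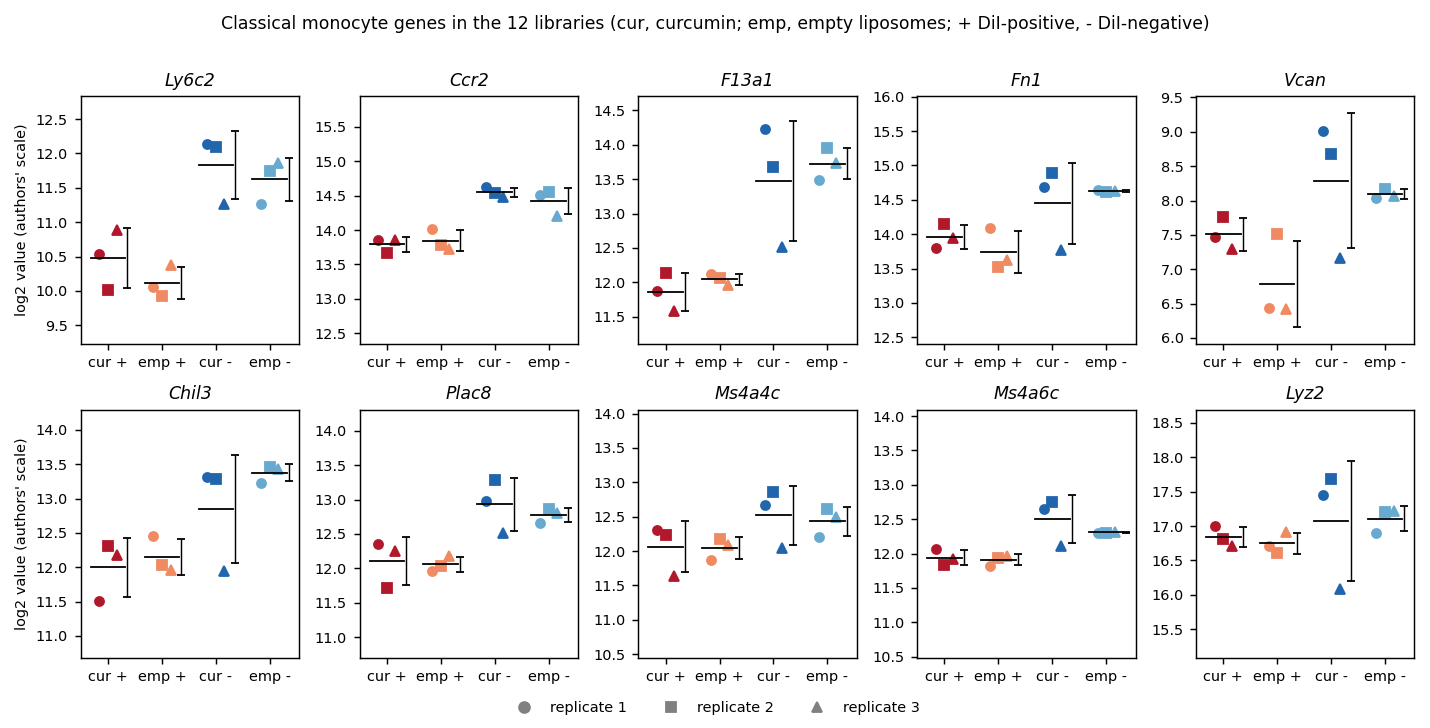
Log2 value (authors' scale, vertical axis) of each of the 10 genes in each library, with the 4 groups along the horizontal axis, marker shape for replicate number, a horizontal line for the group mean and a bar for ±1 SD (n = 3). Every panel spans the same number of log2 units. Ly6c2, Ccr2, F13a1, Plac8 and Ms4a6c have all 6 DiI-positive libraries under all 6 DiI-negative ones.

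Among the receptors and surface markers, Ly6c2 encodes the GPI-anchored protein that antibodies to Ly6C detect. Its log2 values were 10.53, 10.01 and 10.88 in curcumin DiI-positive, 10.05, 9.92 and 10.37 in empty DiI-positive, 12.14, 12.10 and 11.26 in curcumin DiI-negative, and 11.27, 11.74 and 11.86 in empty DiI-negative libraries. The highest DiI-positive library lay under the lowest DiI-negative one. The log2 fold change was -1.36 ± 0.27 (SE, adjusted p = 0.024, limma) after curcumin and -1.51 ± 0.27 (adjusted p = 0.015) after empty liposomes. Averaged, Ly6c2 was 2.70-fold lower in DiI-positive cells, at -1.44 ± 0.19 (adjusted p = 0.0011).

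Ccr2 encodes the receptor for the monocyte attractants CCL2, CCL7 and CCL12. It read 13.86, 13.67 and 13.86 in curcumin DiI-positive, 14.02, 13.78 and 13.73 in empty DiI-positive, 14.62, 14.54 and 14.48 in curcumin DiI-negative, and 14.51, 14.56 and 14.21 in empty DiI-negative libraries. The gates did not overlap, and the gap was narrow, with libraries within a group close to each other. Ccr2 fell by 0.75 ± 0.11 (SE, limma adjusted p = 0.0077) after curcumin and by 0.58 ± 0.11 (adjusted p = 0.023) after empty liposomes. Its averaged difference, -0.66 ± 0.08 or 1.58-fold, had the smallest adjusted p of the 10 genes, 0.00058. Ly6c2, Ccr2 and F13a1 were the 3 genes past the threshold under both liposomes. The share of all genes lower under both was not counted. It can be at most the 1.62% called lower after empty liposomes.

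Of the secreted and matrix products, F13a1, the A subunit of coagulation factor XIII, a transglutaminase that crosslinks fibrin, moved most. It stood at 11.88, 12.13 and 11.58 in curcumin DiI-positive, 12.12, 12.06 and 11.96 in empty DiI-positive, 14.23, 13.68 and 12.51 in curcumin DiI-negative, and 13.49, 13.95 and 13.74 in empty DiI-negative libraries. Gates did not overlap, although the third curcumin DiI-negative library stood only just above the DiI-positive ones. F13a1 was 3.13-fold lower in DiI-positive cells, with differences of -1.61 ± 0.33 (SE, limma adjusted p = 0.026) after curcumin, -1.68 ± 0.33 (adjusted p = 0.024) after empty liposomes and -1.65 ± 0.23 (adjusted p = 0.0015) averaged.

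Fn1 encodes fibronectin, an adhesive glycoprotein of the matrix. Its values were 13.80, 14.15 and 13.94 in curcumin DiI-positive, 14.09, 13.52 and 13.62 in empty DiI-positive, 14.68, 14.89 and 13.77 in curcumin DiI-negative, and 14.65, 14.61 and 14.63 in empty DiI-negative libraries. After empty liposomes the gates did not overlap, whereas after curcumin the third DiI-negative library lay below all 3 DiI-positive ones. The averaged difference was -0.68 ± 0.17 (SE, limma adjusted p = 0.025), while neither liposome alone passed the threshold, at -0.48 (adjusted p = 0.33) after curcumin and -0.89 (adjusted p = 0.079) after empty liposomes. Averaged, Fn1 passed in 12 of 20 alternative settings of the fit.

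Vcan encodes versican, a chondroitin sulphate proteoglycan, and had the lowest level of the 10. It read 7.47, 7.76 and 7.29 in curcumin DiI-positive, 6.43, 7.51 and 6.42 in empty DiI-positive, 9.01, 8.68 and 7.17 in curcumin DiI-negative, and 8.03, 8.17 and 8.07 in empty DiI-negative libraries. The DiI-positive libraries after empty liposomes were spread widely, 2 of them about 1 log2 unit under the other. Vcan fell by 1.04 ± 0.30 averaged over liposomes (SE, limma adjusted p = 0.041), and its differences of -0.78 (adjusted p = 0.35) after curcumin and -1.30 (adjusted p = 0.12) after empty liposomes did not pass. The averaged difference of Vcan passed in only 9 of 20 alternative settings of the fit.

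Chil3 encodes the secreted chitinase-like protein Ym1. Values were 11.51, 12.31 and 12.18 in curcumin DiI-positive, 12.45, 12.04 and 11.96 in empty DiI-positive, 13.32, 13.28 and 11.94 in curcumin DiI-negative, and 13.23, 13.46 and 13.43 in empty DiI-negative libraries. The gates overlapped through the third curcumin DiI-negative library alone. The averaged difference, -1.04 ± 0.23 or 2.05-fold, passed the threshold (limma adjusted p = 0.015), and those after curcumin (-0.85, adjusted p = 0.19) and after empty liposomes (-1.22, adjusted p = 0.072) did not.

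Lyz2, which encodes lysozyme M, an antibacterial enzyme of monocytes, macrophages and neutrophils, had the smallest difference. It measured 17.00, 16.81 and 16.71 in curcumin DiI-positive, 16.71, 16.61 and 16.92 in empty DiI-positive, 17.45, 17.69 and 16.08 in curcumin DiI-negative, and 16.90, 17.20 and 17.22 in empty DiI-negative libraries. Both the highest and the lowest of the 12 values belonged to curcumin DiI-negative cells. The differences of -0.24 after curcumin (limma adjusted p = 0.75), -0.36 after empty liposomes (adjusted p = 0.62) and -0.30 ± 0.22 averaged (SE, adjusted p = 0.44) did not pass. Without replicate 3 of the curcumin DiI-negative cells the averaged difference was -0.55 ± 0.09 (adjusted p = 0.005), and without replicate 2 the difference after curcumin was 0.07.

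Of the remaining genes, Plac8 encodes a small cysteine-rich protein of myeloid and lymphoid cells. It read 12.36, 11.71 and 12.25 in curcumin DiI-positive, 11.96, 12.04 and 12.18 in empty DiI-positive, 12.98, 13.29 and 12.52 in curcumin DiI-negative, and 12.66, 12.86 and 12.81 in empty DiI-negative libraries. The gates did not overlap under either liposome. Plac8 was 1.70-fold lower averaged (-0.77 ± 0.14, SE, limma adjusted p = 0.005). It passed the threshold after curcumin (-0.82, adjusted p = 0.048), though in only 5 of 21 alternative settings of the fit. The difference after empty liposomes was -0.72 (adjusted p = 0.078).

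Ms4a4c and Ms4a6c encode membrane proteins of the MS4A family and lie close together on chromosome 19 (GRCm38, GENCODE M21), Ms4a4c from 11404770 to 11427246 and Ms4a6c from 11469366 to 11482192, both on the plus strand. Ms4a6c measured 12.06, 11.84 and 11.92 in curcumin DiI-positive, 11.82, 11.94 and 11.97 in empty DiI-positive, 12.65, 12.75 and 12.11 in curcumin DiI-negative, and 12.30, 12.30 and 12.32 in empty DiI-negative libraries. Its gates did not overlap and it fell by 0.48 ± 0.10 averaged (SE, limma adjusted p = 0.011), with differences short of the threshold after curcumin (-0.57, adjusted p = 0.059) and after empty liposomes (-0.40, adjusted p = 0.17). Ms4a4c measured 12.31, 12.24 and 11.64 in curcumin DiI-positive, 11.87, 12.17 and 12.09 in empty DiI-positive, 12.67, 12.86 and 12.04 in curcumin DiI-negative, and 12.20, 12.61 and 12.50 in empty DiI-negative libraries. Here the gates overlapped after curcumin, and the averaged difference of -0.43 ± 0.16 (adjusted p = 0.10) did not pass.

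**Figure D2:**
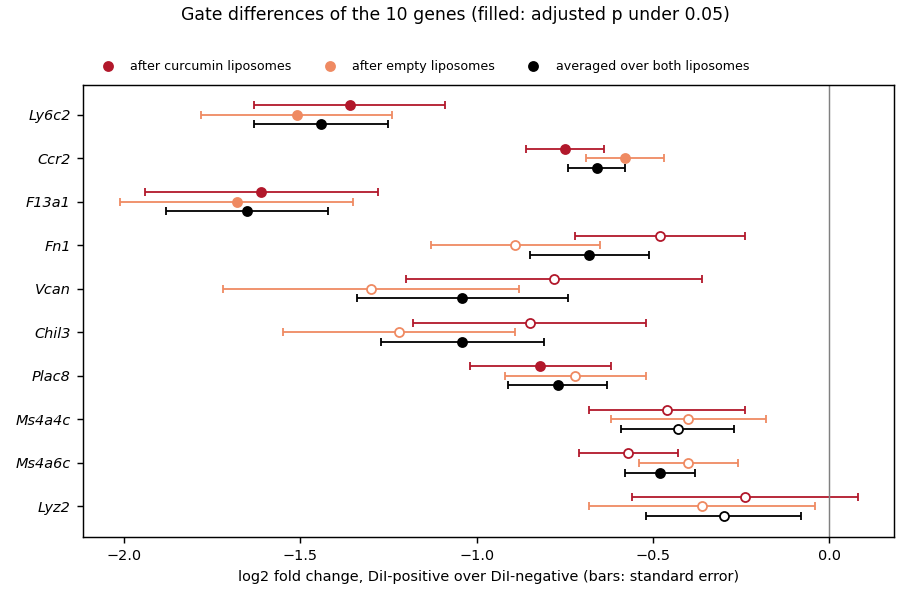
Log2 fold change (horizontal axis, authors' scale) of DiI-positive over DiI-negative cells for each gene (vertical axis), after curcumin liposomes, after empty liposomes and averaged over both, with bars for ±1 standard error and filled points for an adjusted p under 0.05. All 30 points lie left of 0, from -1.68 for F13a1 after empty liposomes to -0.24 for Lyz2 after curcumin.

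Counted without a model, every DiI-positive library lay below every DiI-negative library for 5 of the 10 genes after curcumin liposomes (10.7% of all genes tested), for 9 of the 10 after empty liposomes (14.5%) and, over 6 libraries against 6, for 5 of the 10 (3.52%). Those 5 were Ly6c2, Ccr2, F13a1, Plac8 and Ms4a6c. Single libraries moved the counts within a liposome, over all genes as well as over the 10. After curcumin, with 437 genes called in either direction in all, 1 of the 10 passed without replicate 1 or replicate 2 of either gate, where 114 to 303 of all genes were called. Without replicate 3 of the DiI-negative cells 8 of the 10 passed, with 236 of all genes called. After empty liposomes, with 419 of all genes called, 0 of the 10 passed without replicate 2 of the DiI-positive (144 of all genes) or of the DiI-negative cells (108). There 1 passed without replicate 3 of the DiI-positive cells (263 of all genes) or replicate 1 (85) or 3 (147) of the DiI-negative cells. Without replicate 3 of the curcumin DiI-negative cells, which enters through the shared spread, 8 passed (408 of all genes). Averaged over liposomes, between 6 and 10 passed whichever library was left out, and Ly6c2, Ccr2, F13a1, Chil3, Plac8 and Ms4a6c passed each time. With all 12 libraries 1722 of all genes were called averaged, and the numbers in these averaged refits are not given here.

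Depth as inferred here ran with the gate. A relative depth index was 0.729 to 1.158 in the DiI-positive libraries and 1.022 to 1.225 in the DiI-negative ones. It was taken from genes assumed to have a single read, if the values are a regularized log, and does not give read numbers. With this index as a covariate the averaged differences of the 10 genes remained negative, from -1.79 for F13a1 to -0.35 for Lyz2. Calls over all genes in either direction numbered 479 under this covariate, against 1722 without it. Then 4 of the 10 passed (limma adjusted p): F13a1 and Ccr2 at 0.013, Ly6c2 at 0.019 and Vcan at 0.036. Within single liposomes 0 of the 10 passed after curcumin (68 of all genes) and 1 after empty liposomes (171 of all genes) under that covariate.

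Replicate 3 of the curcumin DiI-negative cells stood apart from the other 5 DiI-negative libraries. It was the lowest of the 6 for 9 of the 10 genes, all but Ccr2, and for 5 genes it was at or below the highest DiI-positive value. Its mean deviation from the genes' own means was -0.24, against 0.75 in each of replicates 1 and 2 of its group, 0.30 to 0.52 in the empty DiI-negative and -0.50 to -0.35 in the DiI-positive libraries. The gap to the mean of replicates 1 and 2 was largest for Vcan (-1.67), Lyz2 (-1.49) and F13a1 (-1.45) and smallest for Ccr2 (-0.10). For 9 of the 10 genes the gap was at least 0.5 downward, against 3.76% of all genes tested, and the median gap was -0.94, against 0.01 for all genes. In the same library the neutrophil markers were also low, with a summed level of 12.52 on the log2 scale against 13.87 and 13.67 in replicates 1 and 2. Markers of cDC1 cells (cross-presenting dendritic cells) were high, at 15.91 against 14.97 and 14.61, as were plasmacytoid dendritic cell markers, at 13.58 against 12.88 and 12.65. Siglech, a surface receptor of plasmacytoid dendritic cells chosen after its values were seen, read 11.48 against 9.08 and 7.83. Some of this was shared by replicate 3 of the curcumin DiI-positive cells, where the cDC1 sum was 15.38 against 14.46 and 14.45 in replicates 1 and 2 of that group. Siglech read 11.28 there against 7.64 and 7.40, but the plasmacytoid sum was not raised, at 13.61 against 13.66 and 13.53. Within that sum, Ly6d (11.75 against 12.78 and 12.48) and Spib (10.57 against 11.39 and 11.45) were low. Siglech, Ccr9, Tcf4, Klk1, Pacsin1 and Cox6a2 were each highest of the group in that library, with Ccr9 at 10.06 against 6.00 and 6.31. Sinusoidal endothelial markers were high in both libraries, at 13.91 against 12.12 and 12.37 in curcumin DiI-positive and 11.82 against 11.18 and 11.03 in curcumin DiI-negative cells. B cell markers were low in the DiI-positive library, at 16.40 against 17.40 and 17.47, and the deviations of the 2 libraries numbered 3 from their group means had a correlation of 0.328. The part of these cell types in the low monocyte values of the DiI-negative library was not tested, and its depth index, 1.147, was the third highest. Without that library, 10 of the 10 genes passed the threshold averaged over liposomes, with falls of 0.55 (Ms4a4c, Lyz2) to 1.89 (F13a1). The number of all genes called in that refit is not given here, so the 10 cannot be set against it.

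**Figure D3:**
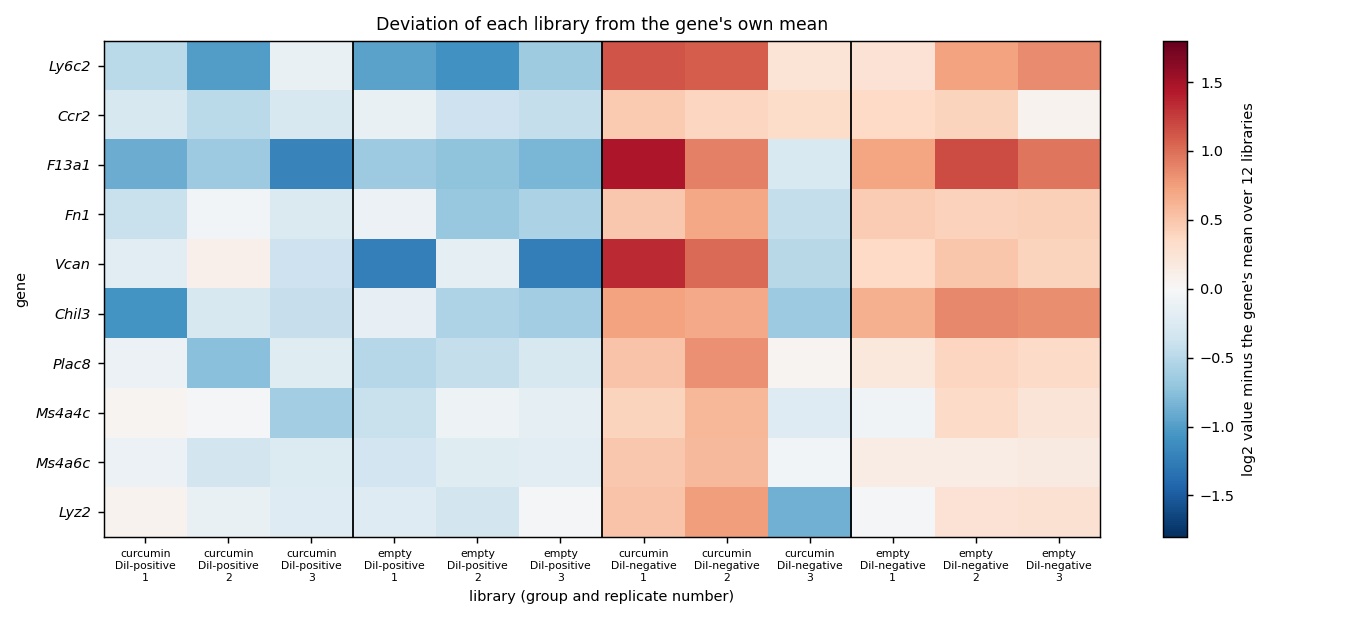
Difference (colour, log2 units) between each library's value and the gene's mean over 12 libraries, with genes in rows and libraries in columns, and black lines between the 4 groups. The DiI-positive libraries are mostly blue (low) and the DiI-negative ones mostly red (high). The third curcumin DiI-negative library is blue for 7 of the 10 genes. The first empty DiI-negative library lies just under the mean for Ms4a4c and Lyz2.

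Compared per kilobase of exon (log2 scale, mean of 12 libraries), Lyz2 was by far the highest at 16.55. Next came Chil3 at 11.88, Plac8 at 11.80, Ms4a4c at 11.46, Ccr2 at 11.40, Ms4a6c at 11.13 and Fn1 at 10.65. F13a1 at 10.03 and Ly6c2 at 9.56 were lower, and Vcan at 3.81 stood far under the rest. Neighbours from Chil3 to Ms4a6c were closer together than the spread of libraries within several groups, so their order is not firm. Ly6c2 and F13a1 ranked low in level and had the largest falls between gates, whereas Lyz2 ranked highest and had the smallest difference. The other genes did not keep to that order. Chil3, next to the highest, and Vcan, the lowest, each had an averaged difference of -1.04.

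Curcumin against empty liposomes gave no call among the 10 genes in any comparison. In DiI-positive cells the median log2 fold change of the 10 was 0.04, in DiI-negative cells 0.11 and averaged over gates 0.05. The number past the threshold in limma was 0 of 10 in each, and 0 of 10 for the difference of the curcumin effects between the gates, with 0 at an unadjusted p under 0.05 each time. Over all 14227 genes the share called was 0% in DiI-positive cells, 0% in DiI-negative cells, 0% averaged and 0% for the difference, while 1165, 469, 1119 and 527 genes had an unadjusted p under 0.05. The values of both groups overlapped for every gene in both gates, so no fall or rise of these genes with curcumin was detectable with 3 libraries a group.

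Genes whose difference within a gate, or between the gates, was at least its standard error are given with their 95% limma intervals. Vcan averaged 7.51 ± 0.24 in curcumin and 6.78 ± 0.63 in empty DiI-positive cells (SD, n = 3 each), a difference of 0.72 (interval -0.19 to 1.64). Ly6c2 averaged 10.47 ± 0.44 in curcumin and 10.12 ± 0.23 in empty DiI-positive cells, a difference of 0.36 (-0.24 to 0.95). Those intervals reach past a 2-fold change for Vcan and stop short of it for Ly6c2.
In DiI-negative cells Chil3 averaged 12.85 ± 0.79 after curcumin and 13.37 ± 0.12 after empty liposomes, a difference of -0.52 (-1.24 to 0.19). Ccr2 averaged 14.55 ± 0.071 after curcumin and 14.42 ± 0.19 after empty liposomes, a difference of 0.13 (-0.12 to 0.37). Ccr2 had the narrowest interval of the 10 genes in each gate. For Ms4a6c the difference was 0.20 (-0.12 to 0.52). The curcumin effect in DiI-positive minus that in DiI-negative cells was 0.41 (-0.35 to 1.16) for Fn1 and -0.17 (-0.52 to 0.18) for Ccr2, and neither passed.

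**Figure D4:**
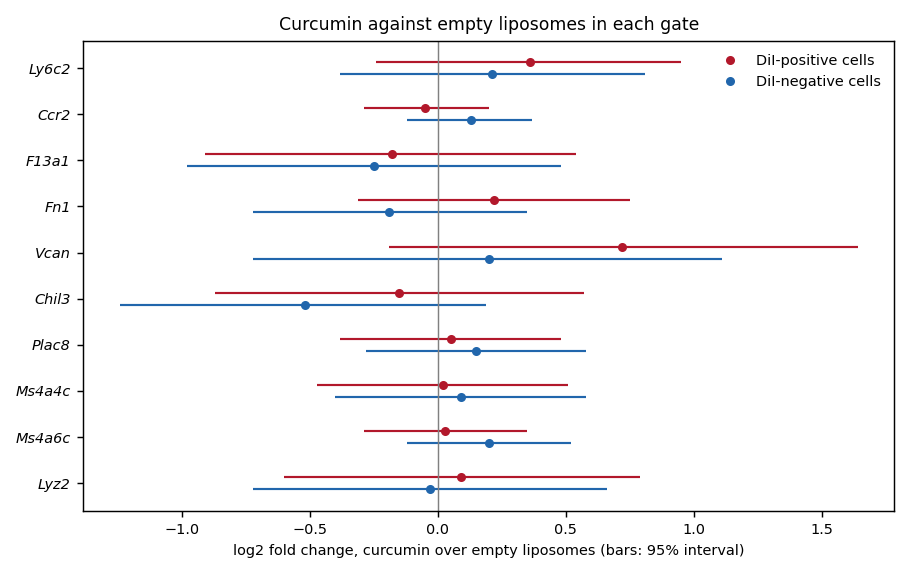
Log2 fold change of curcumin over empty liposomes (horizontal axis, authors' scale) for each gene (vertical axis) in DiI-positive and in DiI-negative cells, with 95% limma intervals as bars. Every interval crosses 0, and that of Vcan in DiI-positive cells is the farthest right, at 0.72.

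Other genes of the same biology moved in part, against 6.56% of all genes tested that fell and 5.54% that rose averaged over liposomes. Among 19 further classical monocyte genes, 5 fell in DiI-positive cells averaged over liposomes, 0 rose, and the median was -0.17. They were Ifitm6 (-1.06 ± 0.12, limma adjusted p = 0.00045) and Ifitm3 (-0.86, adjusted p = 0.0026), interferon-induced membrane proteins, Emilin2 (-1.05, adjusted p = 0.00044), a matrix glycoprotein, S100a6 (-0.95, adjusted p = 0.00032), a calcium-binding protein, and Itgam, the CD11b integrin chain, which was named after its values were seen (-0.54). The other 14 did not pass.

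On the ligand side of CCR2, Ccl7 (0.41 ± 0.10, limma adjusted p = 0.019) and Ccl12 (0.17 ± 0.04, adjusted p = 0.01) rose in DiI-positive cells, in which Ccr2 itself fell. Both were low. Ccl12 read 4.24 to 4.34 in DiI-positive and 4.10 to 4.21 in DiI-negative libraries, near the level filter of 4. Ccl7 read 5.90 to 6.39 and 5.57 to 5.91. Neither passed after curcumin (limma adjusted p = 0.069 for Ccl7, 0.07 for Ccl12) or after empty liposomes (0.26 and 0.13). The part of depth in these differences was not tested. Ccl2 averaged 8.07 ± 0.16 in curcumin DiI-positive, 8.18 ± 0.22 in empty DiI-positive, 8.12 ± 0.48 in curcumin DiI-negative and 8.05 ± 0.43 in empty DiI-negative cells (SD, n = 3 each). Among 8 tested partners of the secreted and matrix genes, Itga5, the fibronectin receptor chain, fell (-0.53 ± 0.10, adjusted p = 0.0055) and the other 7 did not pass.

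Near relatives of the 10 genes did not all move with them. Ly6a, which lies in the same gene family as Ly6c2 and encodes Sca-1, rose in DiI-positive cells (0.76 ± 0.11, limma adjusted p = 0.0019). In the MS4A cluster on chromosome 19, Ms4a4b (11443553 to 11467055), between Ms4a4c and Ms4a6c, fell by 0.98 ± 0.08 (adjusted p = 0.0001). Ms4a6b (11516512 to 11531256) fell by 0.48 ± 0.13 (adjusted p = 0.029).
Ms4a7 (11321039 to 11336146), a gene of tissue macrophages, had a difference of 0.64 ± 0.31 (adjusted p = 0.21) and so did not pass. Ly6c1, the near copy of Ly6c2, averaged 3.22 to 3.27 in the 4 groups and was under the level filter. Lyz1, the near copy of Lyz2, averaged 8.30 ± 0.23 in curcumin DiI-positive, 8.33 ± 0.55 in empty DiI-positive, 8.40 ± 0.26 in curcumin DiI-negative and 8.20 ± 0.63 in empty DiI-negative cells (SD, n = 3 each). The counting of reads shared by such copies is not given in the sources used here, so the values of Ly6c2, Lyz2 and Chil3 beside those of their copies are uncertain to that extent.

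Of 12 transcription factor genes of monocyte development, 5 fell in DiI-positive cells and 0 rose, with a median of -0.32. Spi1, which encodes PU.1, fell by 0.39 ± 0.08 (limma adjusted p = 0.0077), Cebpb by 0.38 (adjusted p = 0.0081), Irf5 by 0.36 (adjusted p = 0.0058) and Runx1 by 0.30 (adjusted p = 0.032). Nr4a1, a nuclear receptor needed for nonclassical monocytes, fell by 0.54 (adjusted p = 0.047). Among 11 nonclassical monocyte genes, which include Nr4a1, 3 rose and 1 fell. Those that rose were Cd300e (1.48 ± 0.31, adjusted p = 0.0098), an activating receptor, Ear2 (0.69, adjusted p = 0.016), a ribonuclease, and Treml4 (0.58, adjusted p = 0.025), a surface receptor.

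Genes of the cells that monocytes can become split. In the list of monocyte-derived dendritic cell and macrophage genes, 3 of 13 tested fell and 4 rose, with a median of 0.31. The 3 that fell, Cd209a, Clec10a and Mgl2, are also in the cDC2 list below and are counted again there. Cd209a, a lectin of monocyte-derived and conventional dendritic cells, fell most (-2.03 ± 0.20, limma adjusted p = 0.00028), and Clec10a, another lectin, fell by 1.31 (adjusted p = 0.00091). Mertk, a macrophage receptor for dying cells, rose by 1.53 ± 0.23 (adjusted p = 0.0019), and Cd63, a lysosomal membrane protein, by 0.83 (adjusted p = 0.01).

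Markers of other cells also moved with the gate, and their part in the monocyte gene differences was not tested. Of 14 Kupffer cell markers, 12 rose in DiI-positive cells (5.54% of all genes tested rose), with a median of 2.71 and a summed level of 15.87 to 17.36 in the DiI-positive against 14.87 to 15.15 in the DiI-negative libraries. Of 8 B cell markers, 8 rose (summed level 16.40 to 17.54 against 15.76 to 16.27). Of 9 T and NK cell markers, 7 fell (11.74 to 12.46 against 13.16 to 13.67). Dendritic cell markers fell in part, 4 of 7 for cDC2 and 2 of 9 for cDC1 cells with 1 rising. In the plasmacytoid list 2 of 8 rose, Ly6d (1.10) and Spib (1.04), and 6 did not pass. Of the 8 differences 4 were negative, those of Ccr9 (-0.86), Siglech (-0.85), Klk1 (-0.30) and Cox6a2 (-0.25). Of 8 neutrophil markers tested, 0 passed (limma), and Ly6g, Camp, Mpo and Elane were under the level filter. Sinusoidal endothelial markers rose for 2 of 9 and hepatocyte markers for 1 of 7. No gene of these lists was at 0 in all libraries. Of the genes that define the sort, Itgax (CD11c) had a difference of -0.53 ± 0.17 (adjusted p = 0.075) and H2-Ab1 (MHC class II) fell by 0.22 ± 0.06 (adjusted p = 0.036), with means of 12.54 or higher and 17.79 or higher in every group. The labels call the cells dendritic cells, and of the genes that define conventional dendritic cells Flt3, a cytokine receptor, fell by 1.65 ± 0.32 (adjusted p = 0.0073) and Zbtb46, a transcription factor, fell by 1.81 ± 0.51 (adjusted p = 0.04) in DiI-positive cells.

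**Figure D5:**
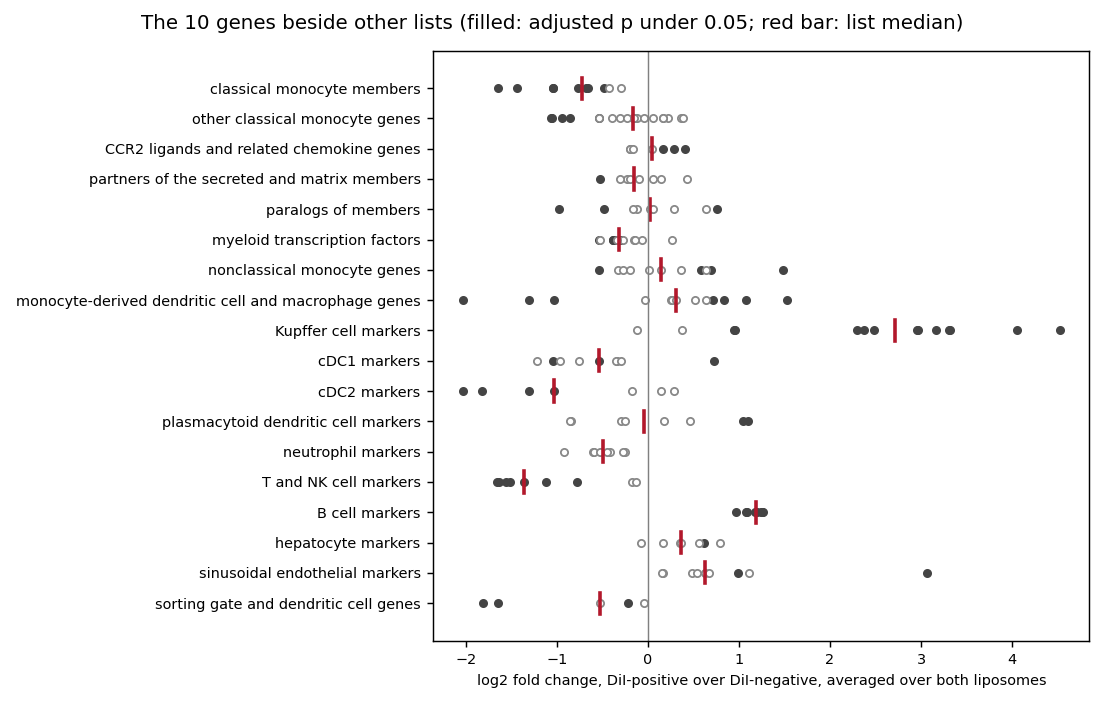
Log2 fold change of DiI-positive over DiI-negative cells averaged over both liposomes (horizontal axis) for each tested gene of each list (vertical axis), filled where the adjusted p was under 0.05, with a red bar for the list median. The 10 classical monocyte genes have a median of -0.73, the 19 further classical monocyte genes -0.17, the Kupffer cell markers 2.71 and the T and NK cell markers -1.36.

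Genes with the most similar profile over the 12 libraries were found by the root mean squared difference of centred log2 values among 11784 genes. Closest to Ly6c2, whose values span 2.22, were Gata2 (0.26), Anxa2 (0.26), Ltb4r1 (0.28), Ifitm6 (0.30) and Anxa1 (0.31), against a median of 0.82 over all genes. Closest to the mean of the 10 genes were Fxyd5 and Ptpro (0.17 each) and S100a6, Oas3 and Fcer1a (0.18 each), against a median of 0.53. Among the 10 themselves Fn1 (0.19) and Plac8 (0.20) followed the mean most closely and F13a1 (0.46) least, and each of these is part of that mean. The measure is a description of libraries that share the same 2 gates.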

How the data were processed

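RNA sequencing of sorted liver cells was labelled with 24 sample records that share 12 codes, and records with the same code were treated as a single library. The series' design text served to read the codes, EL and CL as liposome, P and N as gate. The authors deposited log2 values per gene. STAR 2.4.0d, DESeq2 1.8.1 and GRCm38 are named per the submitters' processing notes, with no role stated, and the counter, annotation and transform remain not given in the sources used here. Values look like a regularized log, which would understate changes of low genes, and carry no read numbers. A relative depth index from 1009 genes assumed to have a single read varied 1.68-fold. Nothing further was normalized.

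From these values limma 3.58.1 in R 4.3.3 fitted all 12 libraries at once with a mean per group. Genes averaging 4 or more on the log2 scale entered (14227 genes, including the 10 described). The prior was trended (8 residual and 3.51 prior degrees of freedom), with Benjamini-Hochberg adjusted p under 0.05 over all genes tested, in 7 comparisons. The fit was tested on simulated data. Symbols and coordinates came from GENCODE M21. Named were the 10 genes, up to 4 genes of the smallest p per list, paralogs, and the 5 nearest profiles. In the curcumin comparisons single genes were named where the difference was at least its standard error. The 10 genes and the 17 other lists were chosen with earlier results of these data known. Alternatives were other filters, quantile normalization, an untrended prior, library weights, a depth covariate, a replicate block, each comparison fitted alone, and left-out libraries. Some genes of the other lists are not reported here.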

Additional observations from a re-analysis of the deposited data

How the results depend on the processing

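The counts of the 10 genes past the threshold between the gates (4 after curcumin, 3 after empty liposomes, 8 averaged) became 0, 1 and 4 with a depth covariate. Calls over all genes, 437, 419 and 1722, became 68, 171 and 479 with that covariate. Library weights gave 5 after empty liposomes (789 of all genes). Fitting a comparison's own 6 libraries alone gave 0 after curcumin (40 of all genes) and 7 after empty liposomes (617 of all genes). The causes were not tested, although the fit alone has fewer libraries. Leaving out single libraries gave 1 to 8 after curcumin, 0 to 8 after empty liposomes and 6 to 10 averaged. With both curcumin libraries numbered 3 left out the counts were 8 after curcumin (706 of all genes), 8 after empty liposomes (666 of all genes) and 10 averaged. For the averaged comparison, calls over all genes with libraries left out are not given here. The replicate block gave 3, 3 and 8 (407, 405 and 1616 of all genes). No label used here says whether same-numbered libraries share more than the number. Their deviations correlated at -0.114 to 0.328, over 0.1 in 2 of 18 pairs. The own number was the best match in 7 of 18, pairs across liposomes included. Between the gates after curcumin, numbers 1, 2 and 3 correlated at 0.066, 0.035 and 0.328, and only number 3 was its own best match. After empty liposomes they correlated at 0.079, 0.004 and 0.076, each its own best match. Pairing of the gates by mouse was not tested. Of the 30 fold changes of single genes between gates, 620 recomputed values kept direction and side of the threshold in 522, lost the call in 67, gained it in 30 and turned in 1: Lyz2 after curcumin ranged from -0.73 to 0.07 over left-out libraries. Counts between curcumin and empty liposomes were 0 under every setting tried. Read numbers are unknown, so depth gives no interval.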
